A study of Homo sapiens with 6 samples.

Results

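The cytosolic ribosomal protein genes encode the proteins of the 2 subunits of the cytoplasmic ribosome. They were chosen by name, as the protein-coding genes of the count table whose symbols follow the pattern of RPL or RPS and a number, together with RPLP0, RPLP1, RPLP2 and RPSA and without the RPS6K kinases. This gave 84 of the 57773 genes in the table. Of these, 49 encode proteins of the large subunit, 32 proteins of the small subunit and 3 proteins of the stalk. The naming rule used no measured value, though earlier results of these data were known when it was set.

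A ribosome needs each of its core proteins in nearly equal number, so the genes for them are known for high and balanced mRNA levels in growing cells. Their mRNAs typically begin with a C followed by a run of pyrimidines, the terminal oligopyrimidine (TOP) motif, through which mTORC1 and the RNA-binding protein LARP1 control their translation. The genes have left many processed pseudogenes in the genome, and several host small nucleolar RNAs in their introns.

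The study disrupted ZNF146 and ZNF507, a pair of zinc finger proteins, in HEK293, a human embryonic kidney cell line, to ask what their depletion does to the transcriptome. Cells received Cas9 plasmids (PX459) expressing guide RNAs against ZNF146 (sgZNF146) or against ZNF507 (sgZNF507), with 4 target sequences for each gene. The control (EV) received empty PX459. Every group went through transient transfection, 36 h of puromycin and outgrowth to 2 weeks, so each library came from a mixed cell population and not from a clone. Total RNA, depleted of ribosomal RNA and sequenced in 50 bp read pairs, was measured in 2 biological replicates of each of the 3 groups.

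The 6 libraries held between 22724439 and 28524025 counts, and 22010 genes passed the filter on low counts. ZNF507 had 1792 and 2087 counts in EV, 1809 and 1843 in sgZNF146, while the sgZNF507 libraries had 1088 and 1411. Against EV this was -0.62 ± 0.07 on the log2 scale (SE, adjusted p = 0.00195). Here and below, unless DESeq2 is named, adjusted p-values come from the quasi-likelihood test of edgeR with the Benjamini-Hochberg adjustment for the whole table of tested genes. ZNF146 had 2860 and 2915 counts in EV, 2517 and 2583 in sgZNF146, and 2036 and 2937 in sgZNF507, and its log2 fold change in sgZNF146 was -0.13 ± 0.08 (SE, adjusted p = 1.00), so the mRNA level of this target did not mark its own group. The paper assessed the disruption in other ways. It reports both proteins as essentially undetectable by western blot in the targeted cells. It also reports frequent insertions and deletions at the guide sites in reads of both genes, which control cells lacked. Of the markers of HEK293 cells, VIM, NEFM, INA, KRT8, KRT18 and PAX2 were detected, with EV means from 6.27 to 1087 counts per 1000000 (CPM), and no tested marker of leukocytes, fibroblasts or muscle exceeded an EV mean of 2.91 CPM.

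Of the 84 ribosomal protein genes, 82 were tested. RPL10L, a germ-cell copy of RPL10, had 0 counts in every library, which allows up to 3 counts or 0.130 CPM in the shallowest library (counting error only).

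Shared sequence was common among the members. The median gene had 31.8% of its 50-base exon windows copied elsewhere in GRCh37, the genome the deposited counts use, 28 genes had over 50% and 6 had over 90%, RPL21 the most with 100%. The annotation held 1590 pseudogenes of these genes, 748 of them with a count, and 78 of the 84 genes had a pseudogene. Exons of 10 of the 84 genes overlapped another annotated gene on the same strand. How the authors' counting treated reads that map to several places or lie in such overlaps was not stated. The counts and levels of strongly copied or overlapping genes are therefore uncertain, while their comparison between libraries uses the same counting throughout.

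The members also shared features that the choice by name did not use. They lay on 21 chromosomes, 12 of them on chromosome 19 and 4 on X, and 29 held 60 small nucleolar RNA genes between them. In the RefSeq promoter table of GRCh38.p14, 67 of the 84 genes were matched by symbol, and 47 of them (70.1%) had a start at which base 1 was a C and the next 4 bases were each C or T, read on the strand of the gene and at the start only. The same letters were found at a start of 5.14% of all 27305 genes in the table and of 6.40% of the protein-coding genes counted here. By start site, the shares were 56.6% of 83 starts against 4.07% of all starts. This describes annotated starts, not starts measured in these cells.

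The start windows of genes that carry the comparisons below are shown as 30 bases, the first 8 of them before the start. Capitals mark the run of C and T that begins with C at base 1. RPS27, RPL24, RPL13A, RPS29 and RPS26 differed between replicate numbers, RPS27L and RPL22L1 are the copies of RPS27 and RPL22, and RPL3 has a run 1 base too short for the motif.
RPS27, chr1:153990754-153990783, plus strand: ctttcgctCCTTTCCggcggtgacgaccta
RPS27L, chr15:63157456-63157485, minus strand: tgccgagcgcagatcgcttgcagcttgcta
RPL24, chr3:101686697-101686726, minus strand: gattctctCTTTCTTTTCgccatcttttgt
RPL13A, chr19:49487600-49487629, plus strand: acctcctcCTTTTCCaagcggctgccgaag
RPS29, chr14:49598689-49598718, minus strand: cgcgcagctggcagcggtggttgtttctgt
RPS26, chr12:56041910-56041939, plus strand: ataacctcgattttcttccgccatccggct
RPL22, chr1:6199574-6199603, minus strand: ctcacctcCCTTTCTaactccgctgccgcc
RPL22L1, chr3:170870174-170870203, minus strand: gtagcttcCTCTCTgctctcgcggccgact
RPL3, chr22:39319602-39319631, minus strand: cgaccggcCTCTaccggcgggatttgatgg

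The genes were highly expressed in these cells. Levels between genes were compared per length, as CPM per kilobase of the canonical transcript, and as CPM per kilobase of all annotated exons merged, a longer measure that lowers the value. Over the 76 tested genes that are not copies of another member, the median level was 419 CPM per kilobase of canonical transcript, with quartiles of 207 and 627, against a median of 3.99 over all genes tested. With merged exons the median was 117 CPM per kilobase, against 2.68 over all genes. RPL8 and RPS2 headed both scales, at 1662 and 1686 CPM per kilobase of canonical transcript, and RPS12 and RPS18 came next with merged exons. RPL36A was the lowest of these 76 genes on either length, at 38.6 per kilobase of canonical transcript, and 49.2% of its windows were copied elsewhere. The middle of the set thus spanned a 3.02-fold range between its quartiles.

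**Figure D1:**
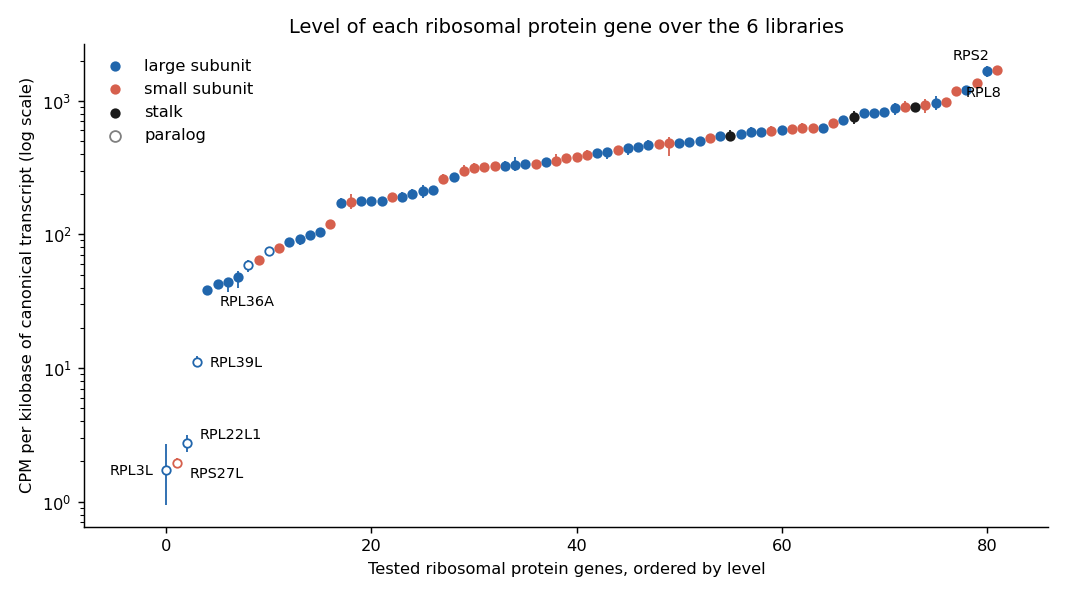
Level of each tested ribosomal protein gene, as CPM per kilobase of canonical transcript on a log scale, with points at the mean of the 6 libraries, lines from the lowest to the highest library and colours for the subunit. Most genes lie within 1 order of magnitude of the median of 419, while the open points for RPL39L, RPL22L1, RPS27L and RPL3L lie far below, and RPL10L, at 0, is not drawn.

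Of the 7 copies of another member, 6 were tested, and all had lower levels per length than the gene they copy. RPL7L1, a nucleolar relative of RPL7 that takes part in large subunit assembly, reached 40.9 to 43.9% of the level of RPL7 across the libraries, per kilobase of canonical transcript. RPL26L1 reached 15.9 to 19.01% of RPL26, and more than 50% of the exon windows of both were copied elsewhere. RPL22L1 reached 2.77 to 3.44% of RPL22, lowest in the sgZNF507 libraries at 2.77 and 2.84%. RPL39L, best known from the testis, reached 1.90 to 2.32% of RPL39. RPS27L reached 0.366 to 0.497% of RPS27, and RPL3L, the form of striated muscle, 0.135 to 0.360% of RPL3. The low share of RPS27L depended strongly on length, and with merged exons it was 0.740 to 1.01%. In counts not scaled by length, RPS27L had 323 against 4678 for RPS27 in EV replicate 1. In the same library RPL39L had 194 against 5385 for RPL39, and RPL22L1 149 against 4700 for RPL22. With merged exons RPL39L, at 7.30 to 8.92% of RPL39, stood above RPL22L1, at 5.81 to 7.21% of RPL22, so the order of these copies depended on the length used.

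Summed over the members, the share of the counts was alike in the 3 groups. In EV they held 3.47% (95% Wilson interval 3.46 to 3.48) and 3.40% (3.40 to 3.41) of the library. In sgZNF146 they held 3.49% (3.49 to 3.50) and 3.36% (3.35 to 3.37). In sgZNF507 they held 3.52% (3.51 to 3.53) and 3.26% (3.26 to 3.27). The group means were 3.44% ± 0.0466, 3.43% ± 0.0934 and 3.39% ± 0.182 (SD, n = 2 each), so the groups overlapped and their means lay closer together than the replicates of sgZNF507. The intervals cover counting error only. The share of the mitochondrial genome, by comparison, was 2.998% ± 0.155 in EV, 2.61% ± 0.0588 in sgZNF146 and 2.36% ± 0.0425 in sgZNF507, and with its genes left out of the total the ribosomal protein share was 3.54%, 3.52% and 3.47%. A change in the number of cells of a kind and a change in RNA per cell cannot be told apart in such bulk RNA.

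**Figure D2:**
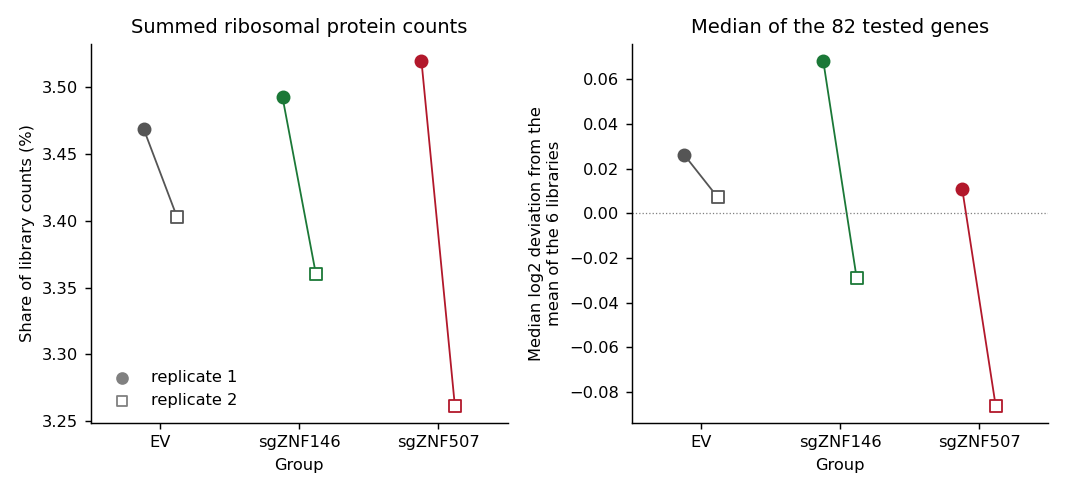
Left, summed counts of the ribosomal protein genes as a percent of each library. Right, the median over the 82 tested genes of the log2 deviation from their mean over the 6 libraries. Within each group the filled circle (replicate 1) lies above the open square (replicate 2), from 3.52% to 3.26% in sgZNF507 for the share, and the groups overlap.

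The first comparison asked whether disruption of ZNF507 changed the ribosomal protein genes. None of the 82 passed an adjusted p of 0.05 in sgZNF507 against EV, beside 0.182% of all genes tested (40 of 22010), and DESeq2 also called none. 61 of the 82 had lower fitted values in sgZNF507 and the median log2 fold change was -0.05, against 0.00 over all genes and -0.02 over the 278 genes counted at least as highly as the median member. Of those 278 genes, the members at or above that count included, 60.8% had lower values. At an unadjusted p under 0.05 there were 6 of the 82 members, beside 747 of all 22010 genes and 25 of the 278. The median change rested on the second sgZNF507 library: without sgZNF507 replicate 2 it was 0.017, and without replicate 1 of that group it was -0.10. For 71 of the 82 genes the 95% interval of the difference lay within 1.25-fold in either direction.

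RPL37 and RPS27, both zinc-binding proteins of the ribosome, stood lowest among the well counted members. RPL37 (chromosome 5, 40825364 to 40835324, minus strand, GRCh37) had 385 and 401 CPM in EV, 406 and 364 in sgZNF146, and 338 and 300 in sgZNF507. Both sgZNF507 values lay below the 4 others. Its log2 fold change against EV was -0.30 ± 0.08 (SE), 0.813-fold, with an adjusted p of 0.556 (unadjusted 0.00183, edgeR's quasi-likelihood test).

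RPS27 (chromosome 1, 153963238 to 153964631, plus strand, GRCh37) had 188 and 177 CPM in EV, 187 and 173 in sgZNF146, and 162 and 136 in sgZNF507. Again the sgZNF507 libraries were the lowest and did not overlap with the others. Both genes were named for low values in these libraries, so this separation is no separate evidence. How many members separate in this way was not counted. Its log2 fold change was -0.30 ± 0.08 (SE), with an adjusted p of 0.731 by the same test. For RPS27 95.05% of the exon windows were copied elsewhere and its 30 pseudogenes held 4.77% as many counts as the gene, while for RPL37 only 3.71% of the windows were copied.

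Both genes passed when the replicate number was added to the edgeR model as a block, so that libraries with the same number were compared with each other. The log2 fold change of RPS27 was then -0.30 ± 0.05 (SE, adjusted p = 1.7e-04) and that of RPL37 -0.30 ± 0.06 (SE, adjusted p = 0.00174), the 2 members among 0.55% of all genes called with the block. These p-values rest mostly on a spread shared over all tested genes and little on the spread of each gene itself. Within number 1 the log2 difference between sgZNF507 and EV was -0.22 for RPS27 and -0.18 for RPL37, and within number 2 it was -0.39 and -0.42. The direction held in both numbers, with the larger difference in number 2. Each library left out in turn, without the block, gave log2 fold changes from -0.43 to -0.16 for RPS27 and from -0.39 to -0.20 for RPL37, none of which passed.

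The other members at the lower end did not pass with or without the block. RPL22L1, which can take the place of RPL22, had 5.99 and 5.32 CPM in EV, 5.99 and 5.05 in sgZNF146, and 4.47 and 4.45 in sgZNF507. The sgZNF507 libraries were the lowest and did not overlap with the others, on 103 to 152 counts a library. RPL22L1 too is among the members named for their low values. Its log2 difference from EV was -0.34 ± 0.16 (SE, adjusted p = 1.00, edgeR). RPS28 of the small subunit had a log2 fold change of -0.20, and RPL41, which encodes the smallest ribosomal protein, and RPL11, which binds MDM2, had -0.19 and -0.17. RPL5, the partner of RPL11 in the 5S particle, was at -0.04.

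At the upper end, RPL3L had a log2 fold change of 0.20 ± 0.38 (SE), on 51 to 134 counts a library, and RPL10, RPS14 and RPS21 had 0.08, 0.08 and 0.07. The stalk genes RPLP0, RPLP1 and RPLP2, whose proteins bring elongation factors to the ribosome, were at 0.00, -0.08 and 0.04. RPS6, the substrate of S6 kinase, was at -0.06, RPS27A, which encodes a ubiquitin fusion, at -0.04, and RPSA at 0.03. None of these passed the test.

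**Figure D3:**
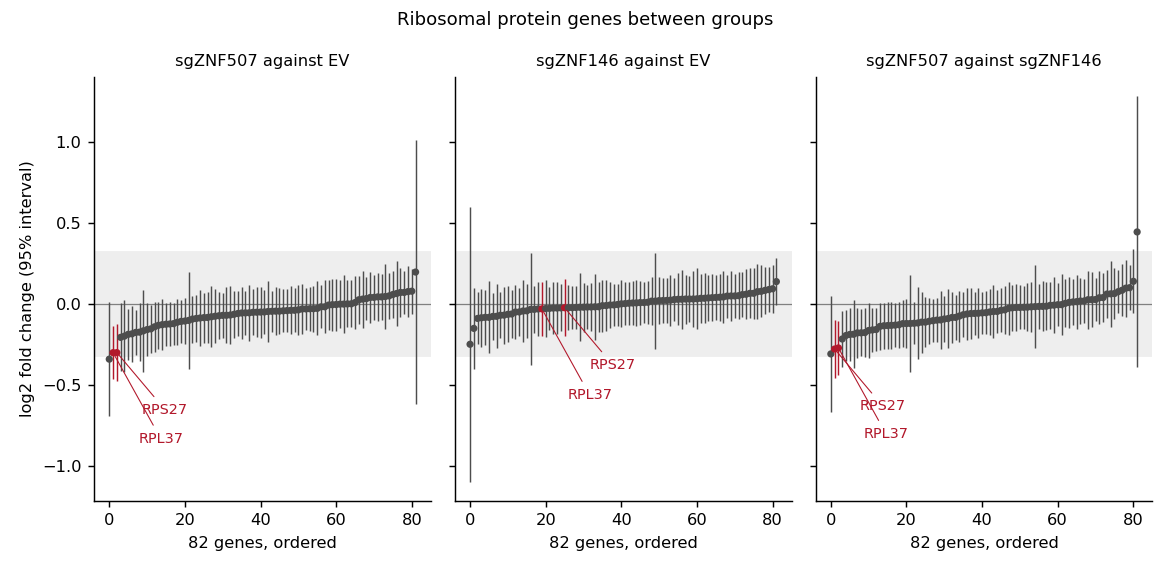
Log2 fold changes of the 82 tested genes with 95% intervals from edgeR, ordered within each comparison, with RPS27 and RPL37 in red and the range within 1.25-fold shaded. In both comparisons of sgZNF507 the red points lie at about -0.3, near the lower end, and in sgZNF146 against EV they lie in the middle, at -0.02 and -0.03.

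Disruption of ZNF146 was compared in the same way. None of the 82 genes passed in sgZNF146 against EV, where 0% of all genes were called (0 of 22010), DESeq2 called none, and no member had an unadjusted p under 0.05, a level that 535 genes reached. 40 of the 82 had lower fitted values and the median was 0.00. For 79 of the 82 the 95% interval lay within 1.25-fold, so changes larger than that were bounded for nearly the whole set. With the replicate block no member was called, beside 0.15% of all genes.

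RPS10, a small subunit protein mutated in Diamond-Blackfan anaemia, had the highest fitted change, a log2 fold change of 0.14 ± 0.07 (SE, unadjusted p = 0.0570, adjusted p = 1.00, edgeR). Its values were 113 and 104 CPM in EV, 119 and 119 in sgZNF146, and 111 and 105 in sgZNF507. The sgZNF146 libraries were thus the highest and did not overlap with the others, in a gene named for its high value there. For RPS10, 94.6% of the windows were copied elsewhere. RPL13, RPL38 and RPS24 followed with 0.09, 0.09 and 0.08. At the lower end stood RPL3L at -0.25 ± 0.39 (SE), RPS27L at -0.15 and RPL26L1 at -0.08, none of which passed.

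The disruptions were also compared with each other, which leaves out the EV libraries but shares the sgZNF507 and sgZNF146 libraries with the comparisons above. None of the 82 passed in sgZNF507 against sgZNF146, beside 0.173% of all genes called, and DESeq2 called none. 62 had lower fitted values in sgZNF507, the median was -0.05 and 10 had an unadjusted p under 0.05, beside 887 of all 22010 genes and 23 of the 278 highly counted genes, of which 58.3% were lower. Without sgZNF507 replicate 2 the median was 0.0066, and without sgZNF507 replicate 1 it was -0.12. With the block RPS27 (log2 fold change -0.28 ± 0.05, SE, adjusted p = 6.3e-04, edgeR) and RPL37 (-0.27 ± 0.06, SE, adjusted p = 0.00759, edgeR) were called lower in sgZNF507, beside 0.891% of all genes. RPL26 of the large subunit came next, at -0.21 with an adjusted p of 0.0556 with the block in edgeR, and RPL22L1 had -0.31. RPS29, RPL10 and RPSA had 0.14, 0.10 and 0.10, and RPL3L 0.45 ± 0.39 (SE).

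**Figure D4:**
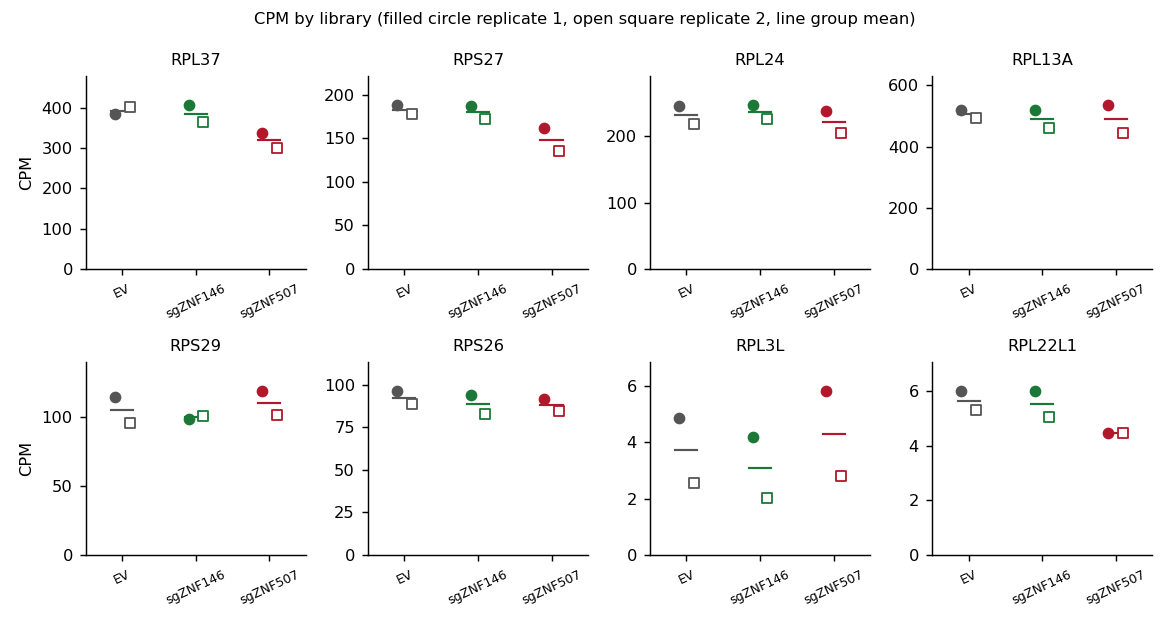
CPM of 8 genes in each library, with filled circles for replicate 1, open squares for replicate 2 and lines at the group mean, on axes that start at 0. RPL37, RPS27 and RPL22L1 are lowest in both sgZNF507 libraries, while in RPL3L each replicate 2 lies below each replicate 1.

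A further comparison was across replicate numbers, since every group had a replicate 1 and a replicate 2. The labels call them biological duplicates and do not say whether libraries with the same number were handled together. In a model with group and replicate number, 80 of the 82 had lower fitted values in replicate 2, with a median log2 difference of -0.07 against 0.00 over all genes and -0.04 over the 278 genes counted at least as highly as the median member, of which 66.9% were lower. 6 of the 82 passed the test, all lower in replicate 2. Over all genes 7.25% were called in either direction and 3.44% were called lower. Of the 278 highly counted genes 37 were called, 20 of them lower. The share of members called lower was close to that of these genes. Members at or above the median count are among the 278, while those below it have no genes of like count there.

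Within the groups the differences were uneven. In EV 51 of the 82 were lower in replicate 2, with a median of -0.03 log2, in sgZNF146 75 with a median of -0.11, and in sgZNF507 70 with a median of -0.10. Lower in replicate 2 in each of the 3 groups were 39 of the 82, against 19.3% of all genes tested. The like share was not counted for the 278 highly counted genes, of which 66.9% were lower in the fit. RPL39L was the only member higher in replicate 2 in each of the 3 groups, with a fitted log2 difference of 0.14 ± 0.10 (SE, adjusted p = 0.516, edgeR). The number of members called depended on the libraries: 14 were called without EV replicate 1 and 18 without EV replicate 2, and 1 without sgZNF507 replicate 1 and 1 without sgZNF507 replicate 2.

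**Figure D5:**
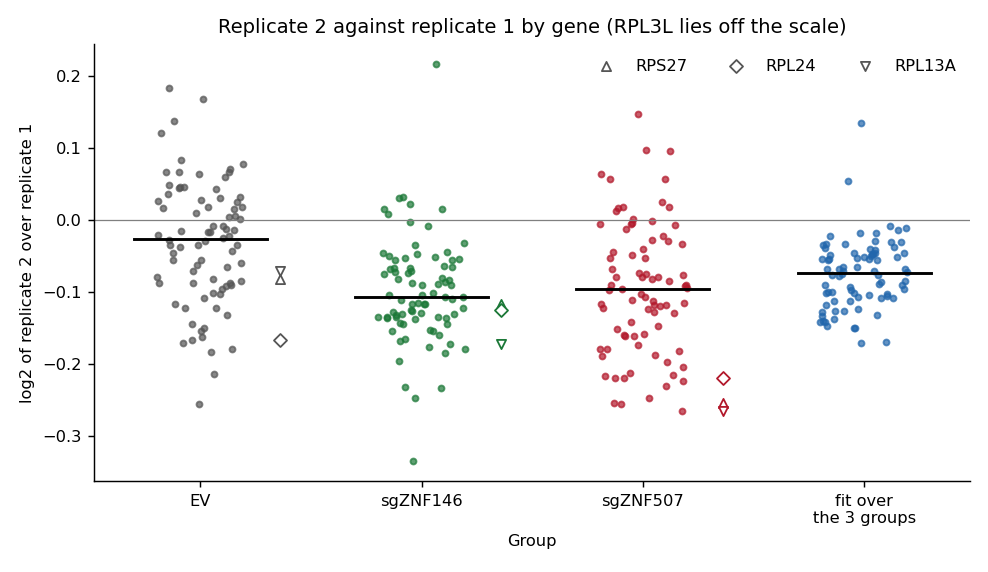
Log2 ratio of replicate 2 to replicate 1 for each tested gene within each group and in the fit over the 3 groups, with black lines at the medians of -0.03, -0.11, -0.10 and -0.07. Most points lie below 0, open symbols give RPS27, RPL24 and RPL13A in each group, and RPL3L, near -1, is not shown.

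Among the 5 well counted genes that passed, RPL24, a large subunit protein at the contact between the subunits, had 245 and 218 CPM in EV, 247 and 226 in sgZNF146, and 238 and 204 in sgZNF507, with replicate 1 first. All 3 values of replicate 2 lay below all 3 of replicate 1, and the fitted log2 difference was -0.17 ± 0.04 (SE, adjusted p = 0.00803, edgeR). RPL13A, a large subunit protein that also silences inflammatory mRNAs outside the ribosome, had 518 and 493 CPM in EV, 520 and 461 in sgZNF146, and 535 and 445 in sgZNF507. Its replicates did not overlap either, and the fitted log2 difference was -0.17 ± 0.05 (SE, adjusted p = 0.0164, edgeR). RPL24, RPL13A and RPL3L, described below, passed this test in the same libraries. The separation of their replicates is therefore no separate evidence.

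RPS27 differed between the numbers as well as between the groups, by -0.15 ± 0.04 log2 (SE, adjusted p = 0.0184, edgeR). The difference was -0.08 in EV, -0.12 in sgZNF146 and -0.25 in sgZNF507. RPS26, which lies at the mRNA exit of the small subunit, had 96.3 and 88.8 CPM in EV, 94.3 and 82.9 in sgZNF146, and 92.0 and 84.5 in sgZNF507, and differed by -0.14 ± 0.04 log2 (SE, adjusted p = 0.0390, edgeR). RPS29 had 114 and 95.6 CPM in EV, 98.4 and 101 in sgZNF146, and 118 and 101 in sgZNF507, so it was lower in replicate 2 of EV and sgZNF507 but not of sgZNF146 (fitted log2 difference -0.15 ± 0.05, SE, adjusted p = 0.0396, edgeR). RPS26, RPS27 and RPS29 did not pass in DESeq2 (adjusted p = 0.245, 0.125 and 0.288), while RPL24, RPL13A and RPL3L did.

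RPL3L had the largest difference. Its counts were 121 and 71 in EV, 106 and 51 in sgZNF146, and 134 and 81 in sgZNF507 with replicate 1 first, and each replicate 2 lay below every replicate 1 of any group. The fitted log2 difference was -1.005 ± 0.14 (SE, adjusted p = 2.8e-06, edgeR), 0.498-fold, and it lay between -1.06 and -0.97 with each library left out in turn. RPL3L lies 4451 bases downstream of RPS2 on the same strand of chromosome 16, and RPS2, with 35604 to 45552 counts a library, differed by -0.05 log2 between the numbers. Whether reads beyond the end of RPS2 enter the count of RPL3L was not tested.

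The stalk genes RPLP0 and RPLP1 had log2 differences of -0.14 and -0.13 between the numbers (adjusted p = 0.0667 and 0.0851, edgeR), RPLP2 had -0.03, and RPSA, a small subunit protein also known as the laminin receptor, had -0.14 (adjusted p = 0.0525). RPL7A and RPS23 had -0.01 each and RPL26L1 0.05. Of the marker genes of HEK293 cells, KRT8 (0.18, adjusted p = 0.0153, edgeR) and KRT18 (0.15, adjusted p = 0.0315, edgeR) were higher in replicate 2, 2 of 6 tested. Over all 22010 genes 838 were called higher. None of the 5 tested markers of other cells passed, but at EV means of 0.378 to 2.91 CPM their SEs were 0.16 to 0.42. The part of such marker differences between the numbers in the ribosomal protein result was not tested.

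Subgroups of the members were described by their medians, with no test between them. Between replicate numbers the median log2 difference was -0.13 for the 3 stalk genes and -0.03 for the 6 copies of other members. It was -0.08 for the small subunit (31 genes) and -0.07 for the large subunit (48 genes), -0.08 for the 29 genes with a small nucleolar RNA inside and -0.07 for the 53 without, and -0.07 for the 47 genes with the start motif and -0.08 for the 19 tested genes with a start in the table and no motif. For genes with under 10%, 10 to 50% and over 50% of windows copied the medians were -0.09, -0.08 and -0.05. In sgZNF507 against EV the 6 copies had a median of -0.13 and the stalk 0.00. The small and large subunits had medians of -0.04 and -0.06, genes with and without the motif -0.05 and -0.05, and the 3 classes of copied windows -0.05, -0.05 and -0.05. Across the 76 genes that are not copies, Spearman's rho between the log2 fold change and transcript length, GC content, share of copied windows or number of pseudogenes lay between -0.07 and 0.08 in the 4 comparisons, a description across genes of the same libraries.

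Because both targets lie on 19q, the members on chromosome 19 were looked at separately. 8 of the 12 lie beyond both targets toward the end of the long arm, RPL13A among them. Their median log2 fold change was -0.04 in sgZNF507 against EV, with 6 of 8 lower, and -0.05 in sgZNF146 against EV, with 8 of 8 lower, and none passed. The 4 other genes of chromosome 19 had medians of -0.11 and 0.01, and the 70 genes on other chromosomes -0.05 and 0.01. The 4 genes on X had medians of 0.04 and -0.01.

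Genes that work with the ribosomal proteins were described from lists. Of the relatives outside the naming pattern, RPL36AL, FAU, which encodes RPS30, and the ribosome-bound scaffold RACK1 did not pass in any of the 4 comparisons. RPL36AL had -0.19 and RACK1 -0.02 in sgZNF507 against EV, and RPL36AL, FAU and RACK1 had log2 differences of -0.02, -0.09 and -0.09 between replicate numbers. Other mRNAs of the TOP class, such as those of elongation factors and of the poly(A)-binding protein PABPC1, had 18 of 19 genes tested, and none passed. In sgZNF507 against EV 14 of the 18 had lower fitted values with a median of -0.06, from -0.20 for NPM1, a nucleolar chaperone, to 0.09 for EIF3L. Between replicate numbers 15 of 18 were lower, with a median of -0.02 and a range from -0.10 for EIF4B to 0.08 for EIF4A2.

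All 38 genes for ribosome assembly and export were tested. Between replicate numbers 6 of 38 were lower in replicate 2, and the median log2 difference was 0.04. Called higher in replicate 2 were 838 of all 22010 genes and 768 of the 14744 protein-coding genes. Of the 38, 4 passed, all higher in replicate 2. These were NMD3, the export adaptor of the large subunit (0.29, adjusted p = 0.00130, edgeR), SBDS, which helps release EIF6 (0.21, adjusted p = 0.00957), RIOK2, a kinase of small subunit maturation (0.24, adjusted p = 0.0164), and ZNF622 (0.19, adjusted p = 0.0338). Between groups none passed, except BRIX1, a large subunit assembly factor, with the block in sgZNF507 against sgZNF146 (-0.23, adjusted p = 0.0486, edgeR). In sgZNF507 against EV 25 of 38 were lower, median -0.04, and in sgZNF146 against EV 30 of 38, median -0.03.

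Between replicate numbers, 3.44% of all genes and 20 of the 278 highly counted genes were called lower in replicate 2. Of the 23 regulators of ribosomal protein mRNA, 3 passed, all lower. These were EIF4EBP1, a repressor of cap-dependent translation under mTORC1 (-0.18, adjusted p = 0.0183, edgeR), and the transcription factors SP1 (-0.17, adjusted p = 0.00412) and YY1 (-0.17, adjusted p = 0.00682), which bind ribosomal protein promoters among many others. The median of the list was 0.03, with 6 of 23 lower. None passed between groups without the block. With it YY1 was lower in sgZNF507 against EV (-0.21, adjusted p = 0.0405, edgeR) and against sgZNF146 (-0.21, adjusted p = 0.0389, edgeR). MTOR, LARP1 and MYC had 0.01, 0.03 and 0.07 in sgZNF507 against EV, and MDM2, which free RPL5 and RPL11 bind, had -0.01.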

How the data were processed

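RNA from 6 HEK293 libraries, 2 for each of EV, sgZNF146 and sgZNF507, was compared as raw counts per gene. The authors clipped reads with the Fastx Toolkit, removed ribosomal RNA reads with Bowtie, mapped the rest to hg19 (GRCh37) with TopHat2 and Ensembl 82 gene models as a stranded library, and deposited the counts made with featureCounts, whose options were not given in the sources used here. Here genes were named and located with GENCODE 44 lifted to GRCh37, which matched 96.1% of the table.

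Counts were filtered with filterByExpr, scaled by TMM and tested with edgeR 4.0.16 (glmQLFit and glmQLFTest, R 4.3.3) in 1 fit of the 6 libraries by group, with Benjamini-Hochberg adjustment over the 22010 genes tested and a threshold of 0.05. CPM values are TMM-scaled. Replicate 2 was compared with replicate 1 in a model of group and replicate number. The replicate numbers come from the sample titles. Deviations of same-numbered libraries from their group means correlated between every pair of groups (r = 0.14, 0.18 and 0.15 over 22010 genes), so the fit with the number as a block is given beside results whose call it changed. Alternatives were DESeq2 1.42.0, other scalings, filters, subsets of libraries, and a loess correction for length and GC. On simulated counts with 200 genes changed 2-fold, edgeR recovered 186 in sgZNF507 against EV (192 with the block, 21991 genes tested). The simulation used an assumed dispersion and planted no smaller changes. It does not show how often changes as small as those of the members between groups would be called.

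The members and lists were chosen with earlier results of these data known. Genes were named by a rule: every member called, the 4 highest and 4 lowest members in each comparison, the 5 highest and 5 lowest per length, the copies with their parent genes, and a fixed set of stalk and reference members. From the lists, called genes and the 2 with the largest change were named. RPL36A, RPL21, PABPC1, MTOR, LARP1, MYC and MDM2 were named after their values were seen. Some genes that these rules name are not reported here. Exact copies of 50-base exon windows were counted on both strands of GRCh37. At the deposited depth of 22724439 to 28524025 counts a library, the 95% interval of a member's log2 fold change had a median half-width of 0.15 between groups and 0.09 between replicate numbers. P-values of the fit by group measure the spread between 2 biological duplicates a group. With replicate number in the model, they measure the spread left after group and number are fitted. In both fits edgeR draws the spread of each gene toward that of all tested genes. The shared part had 9.51 degrees of freedom by group and 43.6 with the number. The gene's own part had 3 and 2, so the p-values rest mostly on the shared spread.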

Additional observations from a re-analysis of the deposited data

How the results depend on the processing

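The count of ribosomal protein genes called in sgZNF146 against EV was 0 under all 14 alternatives. In sgZNF507 against EV and in sgZNF507 against sgZNF146 it was 2 with the replicate block in edgeR, 2 with the replicate block in DESeq2 and 2 with no filter on low counts, and 0 under the 11 other alternatives of each. RPS27 and RPL37 were these 2 genes with either block, and the block changed no other member's call. Between replicate numbers, where 6 were called, the count was 13 with upper quartile scaling, 2 without the group term, 3 in DESeq2 and from 1 to 18 with single libraries left out, and 5 of the 12 alternatives stayed within 1.5 times of 6. The cause of these shifts was not tested.

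Leaving out the libraries singly, the median log2 fold change of the members went from -0.10 to 0.017 in sgZNF507 against EV, from -0.12 to 0.0066 in sgZNF507 against sgZNF146, from -0.05 to 0.05 in sgZNF146 against EV and from -0.11 to -0.06 between replicate numbers. The last kept its sign under all 13 alternatives, the length and GC correction included. The ribosomal protein share of EV was 3.54% without the mitochondrial genes in the total and 3.52% with pseudogenes added. The median level per kilobase moved from 117 to 419 CPM with canonical transcript length, an alternative chosen after seeing the data. A comparison with a length column of the count table was not run, since none is used here.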
